A study of Mus musculus with 12 samples.

Results

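Liver endothelial nuclei were compared between pieces of perfused tissue (Liver) and the cells obtained by collagenase isolation of the same livers (Cell Suspension). The nuclei were those of both groups that the authors annotated as Endothelial Cells in cluster 3 of their clustering, 3050 of 53467 nuclei in the series. Of these, 1982 came from 8 Liver samples and 1068 from 8 Cell Suspension samples. Over all clusters the annotation held 2472 nuclei in Liver and 1126 in Cell Suspension, so cluster 3 left out a larger part of the Liver nuclei. UMIs (unique molecular identifiers, each marking a captured RNA molecule) of unspliced, spliced and ambiguous reads were summed over these nuclei in each sample. Both groups came from the same 8 wild-type mice aged 10 to 12 weeks, given as C57BL6J in the labels and as C57BL/6NTac males in the study's methods. The Liver piece was cut after the liver had been flushed with an EGTA buffer kept at 42 °C and before collagenase, so it is not untouched tissue. The Cell Suspension sample was taken after collagenase perfusion, straining and 3 washes at 50 g. Such spins sediment hepatocytes, so its endothelial nuclei belong to the cells that stayed with the hepatocyte fraction. Cultured samples (Primary Hepatocytes) held 75 nuclei of cluster 3 and were not compared.

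Liver sinusoidal endothelial cells line the capillaries of the liver lobule. They lack a continuous basement membrane, take up waste molecules through scavenger receptors such as stabilins, and release signals to hepatocytes, among them the bone morphogenetic protein Bmp2, which controls hepatic iron sensing. Shear stress from flowing blood keeps the transcription factors Klf2 and Klf4 expressed in endothelium. Immediate-early genes, such as the Fos and Jun members of the AP-1 transcription factor, are transcribed within minutes of a stimulus without new protein synthesis, which is why they are commonly examined in dissociated tissue.

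Endothelial nuclei of the Cell Suspension samples held fewer UMIs, a difference that depended on the test. The samples held 146 to 441 such nuclei in Liver and 38 to 234 in Cell Suspension, with 384250 to 2095570 and 106187 to 631641 UMIs in all. Their share of all nuclei of a sample was 5.32% to 16.7% in Liver and 2.04% to 12.7% in Cell Suspension, and this difference did not pass the test (-2.66 percentage points, two-sided exact permutation test, adjusted p = 0.266). The difference in share of endothelial nuclei among all nuclei was -1.19 without mouse 3 and -4.64 over all endothelial clusters. The median number of UMIs per endothelial nucleus was 2869 ± 709 (SD, n = 8) in Liver and 1745 ± 793 in Cell Suspension (exact permutation test, adjusted p = 0.0205). It was lower in Cell Suspension in 7 of 8 mice, although the call was lost in the exact paired test (adjusted p = 0.0521), within the 4 pools that held both groups (adjusted p = 0.0521) and without mouse 4, 5 or 8 (adjusted p = 0.0641, 0.0767 and 0.0573).

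RNA composition also moved. Unspliced UMIs, which mark transcripts that still hold introns, made up 75.6% ± 1.89 of endothelial UMIs in Liver and 68.7% ± 3.33 in Cell Suspension (SD, n = 8). The groups did not overlap (exact permutation test, adjusted p = 7.77e-04), and the share was lower in all 8 mice and in each of the 4 shared pools. The mitochondrial share was 0.373% ± 0.0693 in Liver and 0.998% ± 0.585 in Cell Suspension (exact permutation test, adjusted p = 0.00233), higher in 7 of 8 mice. Within shared pools the mean differences were -6.81 and 0.400 percentage points (exact within-pool permutation tests, each adjusted p = 0.0521, where the smallest unadjusted p that can be reached is 0.0104).

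**Figure D1:**
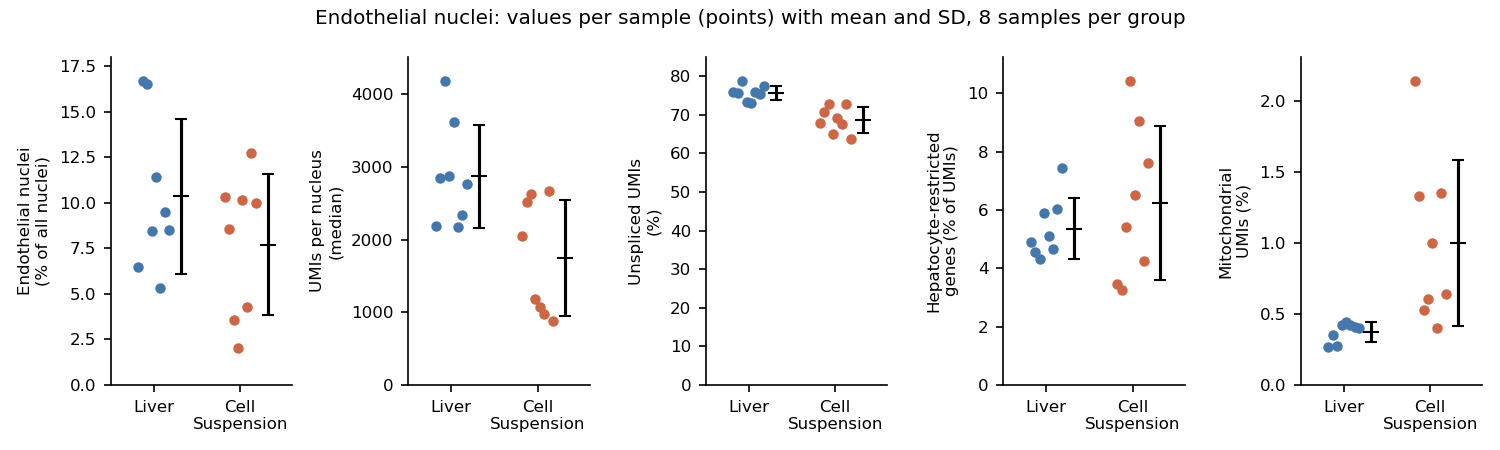
Values of the endothelial nuclei in each of 8 Liver and 8 Cell Suspension samples (points), with the mean and SD at the right of each group. From left to right the panels give the share of endothelial nuclei, the median UMIs per nucleus, and the unspliced, hepatocyte-restricted and mitochondrial shares of UMIs in percent; only the unspliced share has groups that do not overlap.

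Endothelial markers were detected in both groups, as the choice of nuclei by their annotation requires. A list of 24 sinusoidal endothelial genes summed to 15042 to 20793 CPM (UMIs relative to the total of the sample) in Liver and 10698 to 20131 in Cell Suspension, and each gene of it had UMIs in both groups. Defining markers of other cell types were scarce in both groups. The summed levels over the samples were 9.42 to 132 CPM for 11 Kupffer cell markers, 43.7 to 201 CPM for 12 stellate cell markers, 10.5 to 53.4 CPM for 11 leukocyte markers and 9.42 to 173 CPM for 8 biliary markers. In Liver nuclei annotated as these types the same lists reached 7208, 15067, 5077 and 6202 CPM.

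Hepatocyte RNA was present in the endothelial nuclei. The 695 genes restricted to hepatocytes (at least 50 CPM there and at least 2-fold above each other type) took 4.31% to 7.44% of endothelial UMIs in Liver and 3.27% to 10.4% in Cell Suspension, which did not differ past the threshold (0.883 percentage points, exact permutation test, adjusted p = 0.397). The difference in hepatocyte RNA share in endothelial nuclei was 0.364 without mouse 4, 0.384 without mouse 6 and 2.28 within the shared pools, higher in 3 of 4. As a share of the level in hepatocyte nuclei, the 695 genes reached 14.3% to 26.2% in Liver and 11.1% to 32.6% in Cell Suspension. For another gene set, a list of 26 hepatocyte markers, the difference in that share was -1.37 percentage points (exact permutation test, adjusted p = 0.735). Of the 695 genes themselves, 35 (5.04%) were called higher and 2 lower by edgeR, beside 1.86% and 0.932% of all genes tested. With the mouse as a block 58 were higher and 13 lower, beside 343 and 219 of all 15995 genes. Without the Cell Suspension samples of mice 4, 6 and 8, an alternative chosen after seeing the data, there were 20 and 15. That fit called 286 of all 15705 genes higher and 96 lower. The 695 genes were defined over both groups together, and the 35 include the immediate-early genes Zfp36 and Ier2. The share and counts of the 695 genes therefore rest in part on the rises described below. Summed over 26 hepatocyte markers, the level in endothelial nuclei was 17.9% to 32.1% of that in the hepatocyte nuclei of the same Liver sample and 10.8% to 38.4% in Cell Suspension. Multiplying this share by the level of any gene in the hepatocyte nuclei gives the level that hepatocyte RNA alone would bring, here called the hepatocyte product. It assumes that hepatocyte RNA in endothelial nuclei has the makeup of hepatocyte nuclei. Every Liver sample shared its pool, and so its free RNA, with at least 1 Cell Suspension sample, whereas the Cell Suspension samples of mice 1, 2 and 3 lay in pools with no Liver sample. Each pool held 4 samples, and Primary Hepatocytes samples filled the rest of those pools. Pools 1 and 6, with the Liver samples of mice 1, 2, 3, 6, 7 and 8, held no Primary Hepatocytes sample. The product does not cover free RNA of cultured cells, whose part in the changes below was not tested.

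Of 15995 genes tested, 298 were higher and 149 lower in Cell Suspension (edgeR quasi-likelihood test, Benjamini-Hochberg adjusted p under 0.05), 1.86% and 0.932% of all genes and 2.79% together. The median log2 fold change over all genes was -0.09. Scaling changed this balance: 66.7% of calls were higher by TMM normalization, 76.6% of 495 calls by DESeq2 and 79.3% of 440 calls by relative log expression scaling. With the pool as a covariate 213 genes were called (158 higher), and 288 (190 higher) in the 4 pools with both groups. Without mouse 1 there were 255 and without mouse 3 there were 281. With the mouse as a replicate block, which pairs both samples of an animal, 562 genes were called (343 higher). That edgeR fit gave far smaller adjusted p for genes such as Fosb and Jun (7.07e-170 and 5.07e-153, against 3.31e-15 and 4.07e-16). The reason was not tested, so its calls are given only as an alternative. Among the 298 higher genes, the hepatocyte product made up under 25% of the Cell Suspension level for 197 and at least 100% for 29, beside 10853 and 843 of all 15995 genes. After it was subtracted, 177 of the 298 and 89 of the 149 were still called in the same direction, where 2.31% of 15188 genes were called higher and 0.882% lower.

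Immediate-early genes rose together, 20 of 28 tested. The list held 30 genes, and none fell (edgeR, adjusted p under 0.05), with a median log2 fold change of 2.49. Of all genes tested, 1.86% were called higher and 0.932% lower. The samples did not overlap for 14 of the immediate-early genes, against 0.256% of all genes tested that were higher without overlap. The count of risen genes was 15 with the pool as a covariate, 19 in the shared pools and 17 without mouse 1. Without the 3 Cell Suspension samples with the most hepatocyte RNA it was 20. In the same order, 158, 190, 160 and 286 of all genes were called higher. The promoters of 3 of the 20 risen genes and of 2 risen genes of the NF-kB list, Cxcl10 and Nfkbia, are shown. They were picked because they hold motifs that textbooks assign to stimulus-driven transcription. Each stretch is the 250 bases before the RefSeq gene start (build GRCm38), written 5′ to 3′ on the gene's strand, with the motif in capitals.
Nr4a1 (chr15:101266596-101266845, plus strand): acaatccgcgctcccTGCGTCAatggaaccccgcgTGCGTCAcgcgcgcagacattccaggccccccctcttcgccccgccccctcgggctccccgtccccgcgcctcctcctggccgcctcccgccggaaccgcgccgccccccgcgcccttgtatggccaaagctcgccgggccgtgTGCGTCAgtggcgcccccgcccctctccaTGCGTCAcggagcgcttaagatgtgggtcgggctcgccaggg
Dusp1 (chr17:26508473-26508722, minus strand): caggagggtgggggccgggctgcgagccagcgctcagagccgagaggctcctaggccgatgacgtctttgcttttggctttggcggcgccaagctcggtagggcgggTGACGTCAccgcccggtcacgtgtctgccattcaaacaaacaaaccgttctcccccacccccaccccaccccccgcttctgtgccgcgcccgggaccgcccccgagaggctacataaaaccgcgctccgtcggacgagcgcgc
Zfp36 (chr7:28379229-28379478, minus strand): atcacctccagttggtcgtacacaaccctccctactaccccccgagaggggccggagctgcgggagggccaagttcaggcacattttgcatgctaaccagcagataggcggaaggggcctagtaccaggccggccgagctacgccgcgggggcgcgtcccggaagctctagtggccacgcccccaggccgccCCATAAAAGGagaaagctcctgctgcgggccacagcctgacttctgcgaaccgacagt
Cxcl10 (chr5:92348890-92349139, minus strand): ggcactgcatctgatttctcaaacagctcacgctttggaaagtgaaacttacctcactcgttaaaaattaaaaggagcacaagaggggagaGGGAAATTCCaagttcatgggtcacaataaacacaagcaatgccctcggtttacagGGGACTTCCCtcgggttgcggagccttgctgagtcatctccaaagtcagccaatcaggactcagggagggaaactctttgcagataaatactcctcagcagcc
Nfkbia (chr12:55492648-55492897, minus strand): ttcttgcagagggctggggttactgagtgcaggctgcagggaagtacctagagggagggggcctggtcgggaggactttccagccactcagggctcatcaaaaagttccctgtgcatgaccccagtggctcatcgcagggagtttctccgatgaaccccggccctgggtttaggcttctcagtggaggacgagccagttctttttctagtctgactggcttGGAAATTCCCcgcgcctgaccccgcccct

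The capitals mark TGCGTCA in Nr4a1 (a nuclear receptor made on stimulation), at 235, 215, 71 and 42 bases before the start, and TGACGTCA in Dusp1 at 143 bases, both forms of the element bound by CREB and AP-1 related factors. They mark a CArG box, the site of serum response factor, in Zfp36 at 58 bases, and NF-kB sites in the chemokine gene Cxcl10 at 159 and 103 bases and in Nfkbia at 29 bases. In the 250 bases before the start, read on both strands, TGACGTCA stood in 1.55% of all 32851 RefSeq promoters outside chromosome 18, TGACGCA or TGCGTCA in 1.75%, a CArG box in 1.47% and an NF-kB site in 3.90%. Promoters were found for 18 of the 20 risen immediate-early genes, and 3 of their 20 promoters held TGACGTCA (Btg2, Dusp1 and Maff), 2 the variant (Fosb and Nr4a1), 2 a CArG box (Dusp5 and Zfp36) and 4 an NF-kB site (Fos, Fosb, Ier3 and Maff). Of 6 promoters of the 5 risen NF-kB list genes, 3 held an NF-kB site (Cxcl10, Irf1 and Nfkbia). A motif is a match of letters and not a bound site.

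The AP-1 members Fosb, Fos, Jun and Jund changed the most among genes called higher that had at least 50 CPM. Fosb (chr7:19302696-19310051, gene coordinates in GRCm38 as in the GENCODE annotation) was at 0, 3.78 and 6.87 CPM (lowest, median and highest sample) in Liver and at 141, 365 and 817 CPM in Cell Suspension, a log2 fold change of 6.34 ± 0.36 (SE, edgeR, adjusted p = 3.31e-15). Fos (chr12:85473890-85477273) was at 3.22, 9.97 and 14.4 CPM in Liver and 141, 262 and 634 CPM in Cell Suspension (log2 fold change 5.07 ± 0.29, adjusted p = 3.31e-15). Each Cell Suspension sample was above every Liver sample for both genes, and the Cell Suspension sample of mouse 1 was the highest. Jun (chr4:95049034-95052222) went from 20.9, 31.8 and 39.6 CPM to 382, 615 and 1384 CPM (log2 fold change 4.59 ± 0.24, adjusted p = 4.07e-16), Jund (chr8:70698949-70700616) from 8.61, 17.8 and 22.9 CPM to 170.0, 324 and 676 CPM (4.31 ± 0.24, adjusted p = 2.31e-15), and Junb rose by 3.67 ± 0.28. Again no samples overlapped. Among other inducible regulators, Dusp1, a phosphatase that switches off MAP kinases, was at 37.9, 45.1 and 51.6 CPM in Liver and 150.2, 201 and 425 CPM in Cell Suspension (log2 fold change 2.43 ± 0.18, adjusted p = 5.85e-12). Egr1, a zinc finger transcription factor, was at 20.1, 33.0 and 61.4 CPM and 197, 431 and 666 CPM (log2 fold change 3.64 ± 0.22, adjusted p = 1.11e-14). Zfp36, which destabilizes AU-rich mRNAs, rose by 3.21 ± 0.25, Nr4a1 by 2.54 ± 0.34 and Klf6 by 2.66 ± 0.30 on the log2 scale (adjusted p = 2.00e-11, 6.10e-06 and 1.24e-07), all without overlap. With the pool as a covariate the log2 fold change of Klf6 was 1.82, that of Atf3 2.99 and that of Btg2 1.75. In unspliced UMIs alone Egr1 and Junb did not pass (log2 fold changes 2.33 and 2.01, adjusted p = 0.111 and 0.0706), and Dusp1, Klf6 and Fosb had log2 fold changes of 1.72, 3.48 and 5.55. In spliced and ambiguous UMIs Klf6 and Atf3 had 2.05 and 2.74, and in thinned libraries Dusp1 had 1.78.

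**Figure D2:**
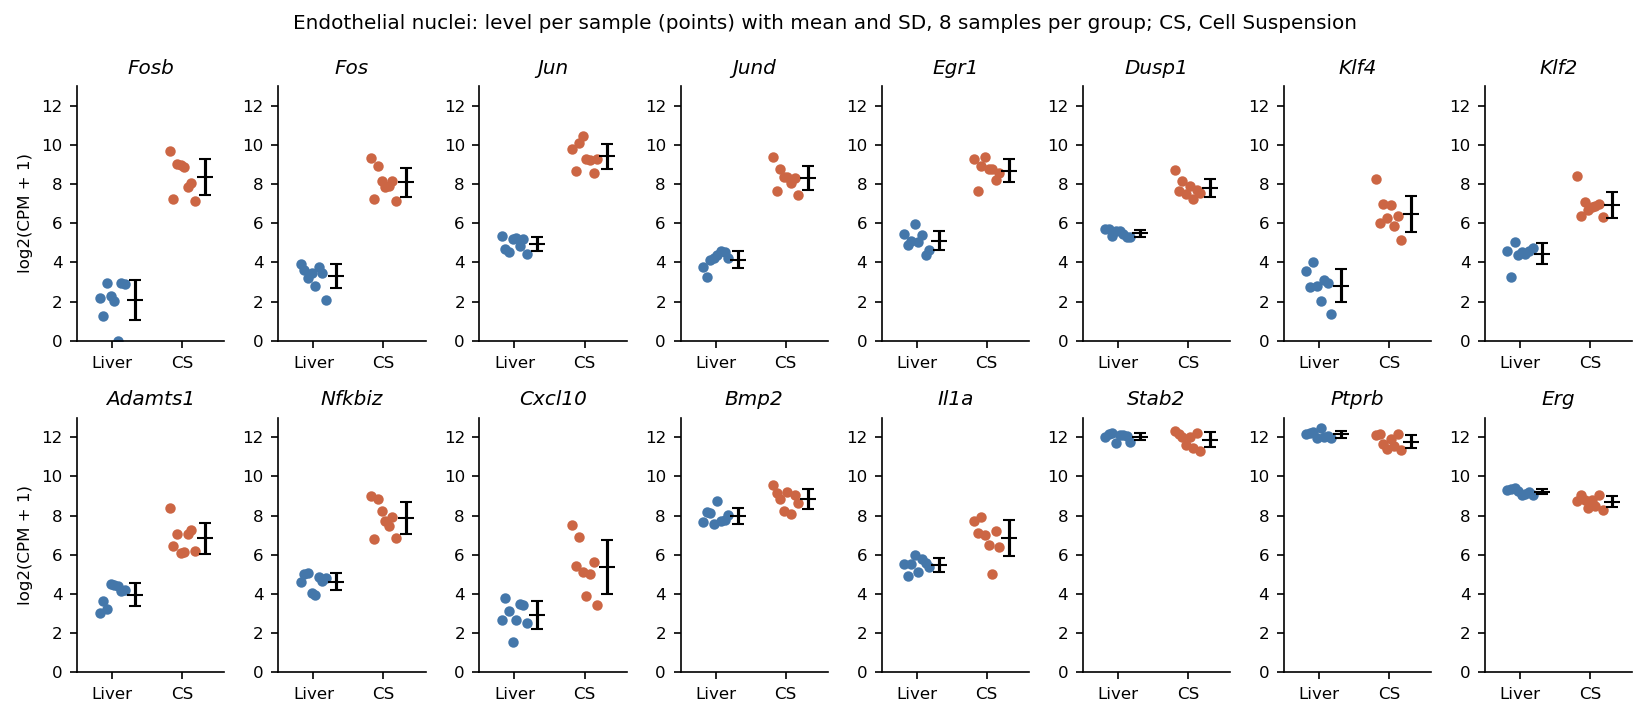
Levels of 16 genes in the endothelial nuclei of each sample, as log2(CPM + 1), with the mean and SD of 8 samples at the right of each group (CS, Cell Suspension). The 11 genes from Fosb to Cxcl10 are higher in Cell Suspension, with only Cxcl10 overlapping, whereas Stab2 and Ptprb lie at high levels in both groups.

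Other members of the list moved less evenly. Rhob, a small GTPase of endosomes and actin, was at 9.91, 14.4 and 22.9 CPM in Liver and 42.2, 68.3 and 164 CPM in Cell Suspension without overlap (log2 fold change 2.56 ± 0.26, adjusted p = 1.03e-08, product 3.63%). Dusp5, a nuclear phosphatase of ERK, was at 3.60, 8.47 and 15.3 CPM and 9.71, 28.2 and 97.1 CPM with overlap (log2 fold change 2.23 ± 0.36, adjusted p = 9.66e-05, product 1.19%). Ier3, an apoptosis regulator, was at 1.98, 3.08 and 4.55 CPM and 9.10, 14.6 and 28.2 CPM without overlap (log2 fold change 2.24 ± 0.38, adjusted p = 2.20e-04). In the shared pools Rhob had a log2 fold change of 1.93, and without mouse 1 Dusp5 had 1.51. Both Rhob and Dusp5 passed with the pool as a covariate, and Ier3 did not (adjusted p = 0.0752). Maff, a small partner of AP-1 related factors, rose by 2.57 ± 0.50, Ier5 by 1.89 ± 0.48, Dusp6 by 1.07 ± 0.25 and Zfp36l1 by 0.73 ± 0.17 (adjusted p = 0.00145, 0.0222, 0.0121 and 0.00900), and none of these 4 passed with the pool as a covariate (adjusted p = 0.323, 0.551, 0.141 and 0.0753). Ier5, Dusp6 and Zfp36l1 did not pass without mouse 1 either, and after subtraction the value of Zfp36l1 was -1.47 (adjusted p = 0.219). The growth regulator Myc was at 0, 1.45 and 11.4 CPM and 0, 11.7 and 31.3 CPM (log2 fold change 1.95 ± 0.59, adjusted p = 0.0680) and passed with the mouse as a block (adjusted p = 0.00764). Klf10 was at 16.7, 24.8 and 67.4 CPM and 25.3, 39.2 and 58.3 CPM (log2 fold change 0.41 ± 0.29, adjusted p = 0.541).

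In hepatocyte nuclei of the same samples 25 immediate-early genes rose, where 9.36% of 15868 genes were called higher and 17.5% lower, so the endothelial levels were set against the hepatocyte product. In Cell Suspension the product reached 42.1 CPM for Fosb, 11.1% of the 379.8 CPM measured before scaling between samples. It reached 21.6% of the measured level for Fos, 24.0% for Jund, 8.05% for Dusp1, 51.8% for Jun and 52.7% for Egr1. For other members it came close to the whole level: 78.2% for Ier2, 89.9% for Btg2 (an antiproliferative factor) and 115% for Atf3 (a stress-induced transcription factor). Of the 20 risen genes, the product was under 25% of the level for 9, from 25% to 75% for 6 and at least 75% for 5.

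After the product was subtracted, 13 of the 20 were still higher, among them Fosb (log2 fold change 6.11, adjusted p = 3.78e-11), Jun (4.21, adjusted p = 5.93e-07), Jund (5.91, adjusted p = 3.78e-11), Zfp36 (4.12, adjusted p = 3.03e-05) and Egr1 (2.93, adjusted p = 5.44e-05). Atf3, Btg2 and Ier2 did not pass (log2 fold changes 0.51, 1.15 and 2.07, adjusted p = 0.846, 0.339 and 0.0612). The same subtraction gave 104 of the hepatocyte-restricted genes called higher, with a median log2 fold change of 1.27 over those still tested, against 35 and 0.03 without it, so a call that remained after subtraction does not set a gene apart from hepatocyte RNA. In the nuclei with the least hepatocyte RNA in each sample (the lower 50%), 17 immediate-early genes rose, where 268 of 13926 genes were called higher. Log2 fold changes there were 7.10 for Fosb, 5.33 for Fos, 3.11 for Atf3 and 1.54 for Nr4a1 (adjusted p = 0.0389 for the latter). In these nuclei Maff, Dusp6 and Zfp36l1 did not pass (adjusted p = 0.331, 0.129 and 0.219).

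**Figure D3:**
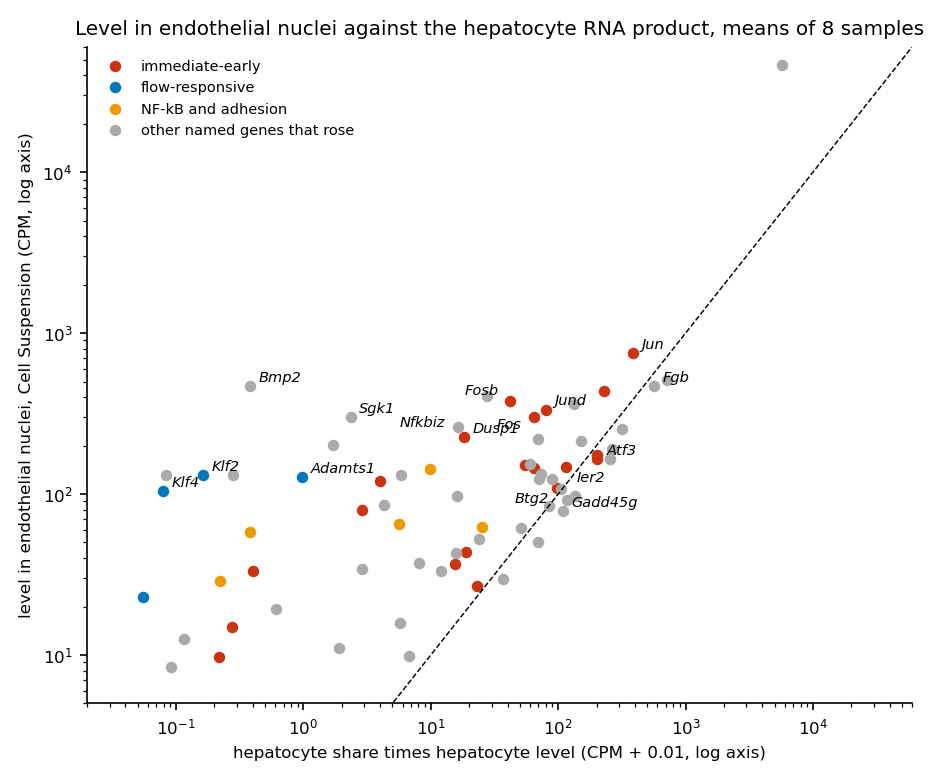
Mean level in endothelial nuclei of Cell Suspension (CPM, log axis, 8 samples) against the hepatocyte product (the hepatocyte RNA share times the level in hepatocyte nuclei, CPM + 0.01, log axis) for named genes that rose; on the dashed line the product equals the level. Klf4, Klf2 and Bmp2 lie far above the line, Fosb and Fos above it, and Atf3, Btg2 and Gadd45g on or near it.

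The change itself was compared between endothelial and hepatocyte nuclei of the same samples, in a model with the sample as a block. Over 25004 genes, the change was higher in endothelial nuclei for 152 (0.608%) and lower for 350 (1.4%). Of the immediate-early genes, 2 changed more in endothelial nuclei and 9 less. The 2 were Jund (difference of log2 fold changes 1.36, adjusted p = 3.32e-05) and Dusp1 (0.93, adjusted p = 0.00613). Fosb and Fos rose less than in hepatocyte nuclei (-1.61 and -1.62, adjusted p = 0.00439 and 1.43e-04), and rose by 7.76 and 6.56 there. The widest gap in this direction was that of Atf3 (-3.55, adjusted p = 1.06e-15), which rose by 7.20 in hepatocyte nuclei.

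**Figure D4:**
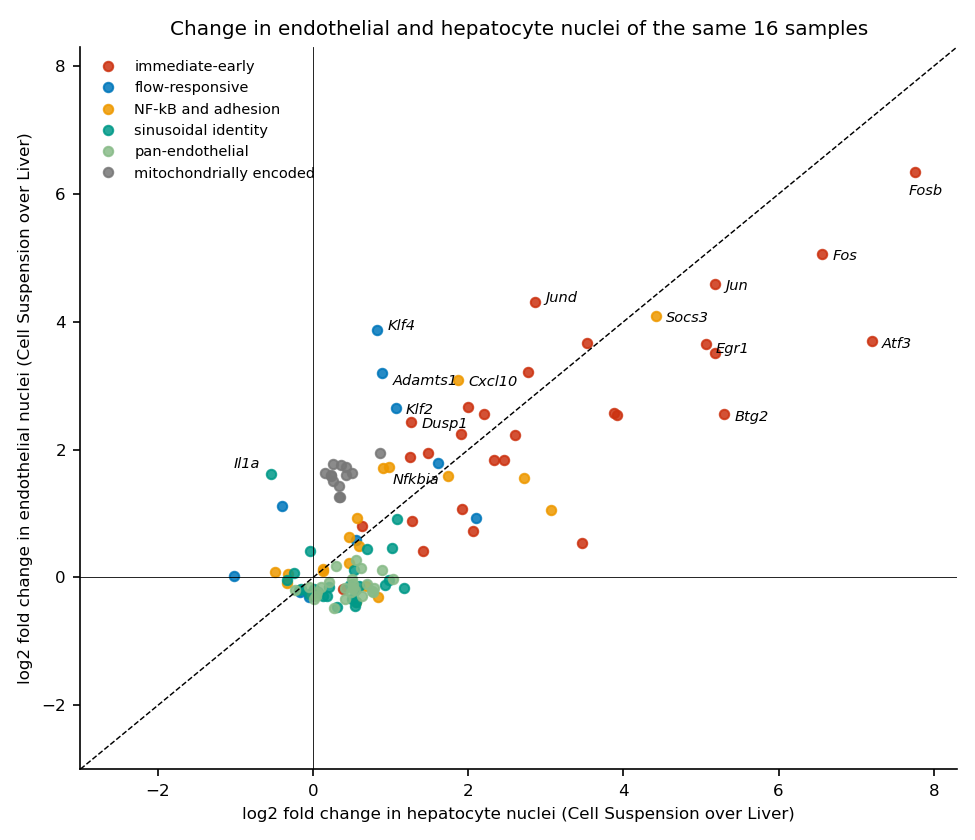
Log2 fold change (Cell Suspension over Liver) in endothelial nuclei against that in hepatocyte nuclei of the same 16 samples, for members of 6 gene groups; on the dashed line both are equal. Klf4, Adamts1, Klf2, Jund and Il1a lie above the line, Atf3, Btg2, Egr1, Fos and Fosb below it, and most endothelial identity genes near 0 on the vertical axis.

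Genes that respond to blood flow were divided. Of 12 tested, 4 rose and none fell, with a median log2 fold change of 0.76, beside 1.86% of all genes higher and 0.932% lower. A fit with the mouse as a block had 5 higher. Klf4 (chr4:55527143-55532466) was at 1.61, 6.32 and 15.2 CPM in Liver and 34.0, 78.6 and 302 CPM in Cell Suspension (log2 fold change 3.88 ± 0.36, adjusted p = 1.66e-09). Klf2 (chr8:72319033-72321656) was at 8.61, 22.7 and 31.9 CPM and 77.7, 115 and 335 CPM (log2 fold change 2.65 ± 0.26, adjusted p = 4.62e-09). Adamts1 (chr16:85793827-85803113), a secreted metalloproteinase that cleaves matrix proteoglycans, was at 7.21, 17.2 and 21.8 CPM and 67.5, 108 and 337 CPM (log2 fold change 3.20 ± 0.30, adjusted p = 1.66e-09). No samples overlapped for these 3 genes, and for each the Cell Suspension sample of mouse 1 stood highest. Without mouse 1 the log2 fold changes were 3.37, 2.20 and 2.64 (adjusted p = 8.99e-09, 1.61e-08 and 5.44e-09). In spliced and ambiguous UMIs that of Adamts1 was 2.51, and in unspliced UMIs those of Klf2 and Adamts1 were 4.11 and 3.97.

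Hepatocyte nuclei hardly held these transcripts: Klf4 was at 0.365 CPM and Klf2 at 0.760 CPM there in Cell Suspension, and the product was 0.0660%, 0.117% and 0.757% of the endothelial level of Klf4, Klf2 and Adamts1. All 3 rose more in endothelial than in hepatocyte nuclei, by 3.09, 1.47 and 2.13 on the log2 scale (adjusted p = 7.33e-05, 0.0298 and 2.92e-07). Thbd, the anticoagulant receptor thrombomodulin, was at 3.60, 7.23 and 14.7 CPM in Liver and 0, 19.5 and 54.6 CPM in Cell Suspension with overlapping samples. It passed the test (log2 fold change 1.79 ± 0.36, adjusted p = 0.00221) but not with the pool as a covariate (adjusted p = 0.346) or without mouse 1. Nos3, the endothelial nitric oxide synthase, was at 13.9, 18.4 and 25.0 CPM and 12.5, 18.1 and 30.1 CPM, with a log2 fold change of 0.02 ± 0.27 (adjusted p = 0.983).

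Of the list of NF-kB and adhesion genes, a part rose. Of 20 genes tested, 5 rose and none fell (median log2 fold change 0.36), where 1.86% of all genes were called higher and 0.932% lower. With the pool as a covariate 3 were higher, and in hepatocyte nuclei 9 were, where 9.36% of all genes were. Cxcl10 (chr5:92346638-92348889), a chemokine that attracts T cells, was at 1.98, 6.63 and 12.9 CPM in Liver and 9.71, 38.1 and 182 CPM in Cell Suspension, with overlapping samples (log2 fold change 3.10 ± 0.42, adjusted p = 5.54e-06), and its log2 fold change was 2.34 with the pool as a covariate, 1.86 in the shared pools and 2.28 without mouse 1. Socs3, a feedback inhibitor of cytokine signalling, was at 0, 3.52 and 6.44 CPM and 30.1, 44.6 and 159 CPM without overlap (log2 fold change 4.09 ± 0.38, adjusted p = 1.66e-09 and 3.34 with the pool). Irf1 and Nfkbia, the inhibitor that holds NF-kB in the cytoplasm, rose by 1.72 ± 0.26 and 1.72 ± 0.28 (adjusted p = 3.93e-05 and 9.68e-05), and Nfkbia did not pass with the pool as a covariate (adjusted p = 0.202). In spliced and ambiguous UMIs Irf1 did not pass (log2 fold change 0.75, adjusted p = 0.0693) and Nfkbia had 1.10 (adjusted p = 0.00799). Cxcl9 passed narrowly (log2 fold change 1.59 ± 0.44, adjusted p = 0.0385) and did not with the pool (adjusted p = 0.915) or without mouse 1, 3 or 4. Outside the list, Nfkbiz (chr16:55811375-55838899), an inducible nuclear partner of NF-kB, was at 14.4, 25.9 and 32.4 CPM in Liver and 109, 225 and 505 CPM in Cell Suspension (log2 fold change 3.39 ± 0.26, adjusted p = 1.47e-11). In spliced and ambiguous UMIs it was 2.37. Its samples did not overlap, and it rose more than in hepatocyte nuclei (1.65, adjusted p = 8.41e-08).

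The sinusoidal and pan-endothelial gene lists gave 3 calls, where 1.86% of all genes were called higher and 0.932% lower. Of 24 sinusoidal genes 2 rose and none fell (median log2 fold change -0.14), and of 26 pan-endothelial genes none rose and 1 fell (median -0.17), beside a median of -0.09 over all genes. Log2 fold changes were below 0 for 17 of the 24 and 22 of the 26, beside 9228 of 15995 genes. Among Cell Suspension samples, those of mice 8, 6 and 4 had the lowest sinusoidal sums (10698, 12007 and 13928 CPM) and the most hepatocyte RNA. With the mouse as a block the sinusoidal list had 2 higher and 2 lower. Bmp2 (chr2:133552159-133562885) was at 186, 238 and 430.4 CPM in Liver and 269, 493 and 752 CPM in Cell Suspension (log2 fold change 0.91 ± 0.18, adjusted p = 0.00169), and the groups overlapped. Il1a (chr2:129299610-129309972), which encodes the cytokine interleukin 1 alpha, was at 28.7, 45.3 and 63.4 CPM and 31.3, 132 and 243 CPM (log2 fold change 1.61 ± 0.23, adjusted p = 1.58e-05). Hepatocyte nuclei of Cell Suspension held 0.447 CPM of Il1a, and its change was larger in endothelial nuclei by 2.01 (adjusted p = 0.00182). The noncoding gene Gm14023 overlaps Il1a on the other strand and rose by 1.9 ± 0.28 (adjusted p = 2.74e-05), or 1.12 with the pool as a covariate. Whether the counting kept the strands apart is not given in the sources used here, so these 2 genes may share reads. In spliced and ambiguous UMIs Il1a had a log2 fold change of 0.65 (adjusted p = 0.192) and Gm14023 1.72 (adjusted p = 1.14e-07), and in unspliced UMIs Il1a had 1.99 (adjusted p = 4.88e-06) and Gm14023 0.51 (adjusted p = 0.675).

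Erg (chr16:95359169-95586593), an ETS transcription factor that maintains endothelial identity, was at 528, 597 and 677 CPM in Liver and 311, 437 and 532 CPM in Cell Suspension (log2 fold change -0.48 ± 0.13, adjusted p = 0.0344). The Cell Suspension sample with the most lay within the Liver range. The call was lost with the pool as a covariate (adjusted p = 0.0746) and without mouse 1, 3, 4 or 6, and in spliced and ambiguous UMIs alone the value was 0.47 (adjusted p = 0.350). The most abundant identity genes did not pass: the scavenger receptor gene Stab2 was at 3373, 4305 and 4770.1 CPM in Liver and 2506, 4071 and 5017 CPM in Cell Suspension (log2 fold change -0.11 ± 0.15, adjusted p = 0.791). Ptprb, a phosphatase of endothelial junctions, was at 4007, 4435 and 5575 CPM and 2628, 3519 and 4509 CPM (log2 fold change -0.34 ± 0.15, adjusted p = 0.257). Among other genes named for these cells, the log2 fold changes were -0.11 ± 0.14 for Arhgap31, 0.15 ± 0.13 for Adgrf5, -0.04 ± 0.15 for Gata4, -0.45 ± 0.28 for Itgb3 and 0.65 ± 0.23 for Pkm (adjusted p = 0.782, 0.634, 0.944, 0.482 and 0.135). Kdr, Pecam1, Cdh5, Lyve1 and Clec4g lay between -0.29 and -0.03 and did not pass. Central-side and portal-side sinusoidal genes had 1 of 11 (Thbd) and 0 of 9 called, and with the mouse as a block each had 1 more, lower in Cell Suspension.

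Receptors and ligands through which the sinusoid signals gave 1 call, where 2.79% of all genes were called. Of 18 angiocrine ligands Bmp2 was the 1 called higher, and of 12 receptors for VEGF, angiopoietins and semaphorins, 12 junction genes and 15 Notch and BMP genes 0 were called. Stab1, the scavenger receptor related to Stab2, was at 389, 453 and 588 CPM in Liver and 337, 479 and 556 CPM in Cell Suspension (log2 fold change -0.03 ± 0.13, adjusted p = 0.942). Tek, the angiopoietin receptor, was at 616, 681 and 874 CPM and 262, 605 and 837 CPM (log2 fold change -0.30 ± 0.17, adjusted p = 0.443). Flt4, a receptor of lymphangiogenic VEGF, was at 438, 524 and 689.8 CPM and 327, 516 and 641 CPM (log2 fold change -0.11 ± 0.14, adjusted p = 0.763). The ranges of the groups overlapped for each of them. Of the ligands that act on pericentral hepatocytes, Wnt2 was at 61.1, 120.3 and 205 CPM in Liver and 62.6, 123 and 171 CPM in Cell Suspension (log2 fold change -0.14 ± 0.20, adjusted p = 0.812). Rspo3, an enhancer of Wnt signals, was at 34.4, 113 and 169.7 CPM and 0, 43.8 and 97.1 CPM (log2 fold change -0.93 ± 0.34, adjusted p = 0.153), and passed with the mouse as a block (adjusted p = 0.00575). The Notch ligand Dll4 was at 27.4, 38.7 and 74.6 CPM and 19.6, 31.4 and 63.7 CPM (log2 fold change -0.21 ± 0.26, adjusted p = 0.777).

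Stress-related lists held rises and no falls. Of 13 heat shock chaperones 5 rose, of 10 Nrf2 targets and metallothioneins 5, of 9 p53 targets and Gadd45 genes 5, of 10 glucocorticoid targets 3, of 11 unfolded protein response genes 3, of 16 hypoxia genes 3 and of 19 actin and YAP-related genes 3, where 1.86% of all genes were called higher. In hepatocyte nuclei these lists had 8, 6, 4, 4, 6, 6 and 10 higher, where 9.36% of all genes were. With the pool as a covariate the counts in endothelial nuclei were 1, 2, 4, 2, 1, 0 and 3, where 158 of all 15995 genes were called higher, and after subtraction of the product 2, 3, 2, 1, 0, 0 and 1 of the risen genes were still higher, where 2.31% of all genes were. With the mouse as a block the glucocorticoid list had 5 higher and the Nrf2 and metallothionein list 6. The circadian clock list had 0 of 16 called, and 1 with that block. Sgk1, a kinase induced by glucocorticoids and by stress, was at 81.8, 95.2 and 117 CPM in Liver and 143, 306 and 493 CPM in Cell Suspension without overlap (log2 fold change 1.73 ± 0.17, adjusted p = 5.30e-09), and its product was 0.777% of the level. Mt1, a metal-binding protein gene, was at 5.09, 14.8 and 66.7 CPM and 18.8, 133 and 429 CPM (log2 fold change 2.68 ± 0.41, adjusted p = 4.23e-05, product 39.5%), and its log2 fold change was 1.42 with the pool as a covariate and 2.06 without mouse 1. The constitutive chaperone Hspa8 rose by 1.64 ± 0.19 and the actin gene Actb by 1.83 ± 0.20 (adjusted p = 2.19e-07 and 4.64e-08, products 55.1% and 36.4%). Gadd45g, induced by DNA damage and stress, rose by 2.90 ± 0.37 (adjusted p = 2.28e-06), but its product was 139.8% of the level and it did not pass after subtraction (adjusted p = 0.650), while in the nuclei with the least hepatocyte RNA its log2 fold change was 1.99 (adjusted p = 0.00979). Hspa8 did not pass in unspliced UMIs (log2 fold change 0.94, adjusted p = 0.532).

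Other stress genes were low. Mt2, a metallothionein related to Mt1, was at 0, 3.47 and 19.7 CPM in Liver and 3.01, 30.6 and 131 CPM in Cell Suspension (log2 fold change 2.87 ± 0.50, adjusted p = 2.88e-04) and did not pass with the pool as a covariate (adjusted p = 0.383), with values of 1.95 without mouse 1 and 3.82 without mouse 5. The small chaperone Hspb1 was at 0, 0.717 and 2.23 CPM and 0, 8.50 and 29.1 CPM (log2 fold change 3.0 ± 0.78, adjusted p = 0.0258) and did not pass without mouse 3, 4, 5 or 8. Dnajb1, a co-chaperone of Hsp70, Hmox1, which degrades heme, and Cdkn1a, an inhibitor of the cell cycle, rose by 2.08 ± 0.45, 1.61 ± 0.45 and 1.57 ± 0.37 (adjusted p = 0.00468, 0.0424 and 0.0102). None of these 3, nor Hspb1, passed with the pool as a covariate (adjusted p = 0.323, 0.774, 0.668 and 0.139), and none of the 3 passed without mouse 1 (Hmox1 also not without mouse 2, 3 or 7). Ccn1, a matrix protein induced by YAP, was at 0, 5.10 and 15.2 CPM in Liver and 24.1, 53 and 135 CPM in Cell Suspension without overlap (log2 fold change 2.98 ± 0.41, adjusted p = 7.28e-06), with a product of 82.6% of the level, and did not pass after subtraction (adjusted p = 0.636) or in the nuclei with the least hepatocyte RNA (log2 fold change 1.9, adjusted p = 0.0607). A further 2 risen genes had products above their level: 125% for Gadd45a and 101% for Vegfa, with log2 fold changes of 2.25 ± 0.45 and 0.99 ± 0.27 (adjusted p = 0.00198 and 0.0371). Vegfa did not pass without mouse 3, 5, 6 or 8 nor with the pool as a covariate (adjusted p = 0.144). After subtraction the value of Gadd45a was -1.53 (adjusted p = 0.490).

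Gclc, the catalytic subunit for glutathione synthesis, was at 51.6, 91.8 and 179 CPM in Liver and 50.1, 218 and 531 CPM in Cell Suspension (log2 fold change 1.20 ± 0.30, adjusted p = 0.0170), with overlap. It did not pass with the pool as a covariate (adjusted p = 0.816) or without mouse 1 or 2. Lipc, a hepatocyte lipase, was at 30.5, 67.3 and 135 CPM and 50.1, 124 and 202 CPM (log2 fold change 0.75 ± 0.25, adjusted p = 0.113) and had a product of 65.8%. With the mouse as a block Lipc passed (adjusted p = 7.30e-04).

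Mitochondrial transcripts, examined as a group after their values were seen, rose together. All 13 mitochondrially encoded protein genes were higher in Cell Suspension, where 1.86% of all genes were, with a median log2 fold change of 1.61, and 11 were called with the pool as a covariate. They changed more than in hepatocyte nuclei, all 13 by the interaction test, where 0.608% of all genes were higher, and their median log2 fold change there was 0.34. mt-Nd3, a subunit of respiratory complex I, was at 14.3, 25.1 and 42.4 CPM in Liver and 12.5, 96.7 and 207 CPM in Cell Suspension (log2 fold change 1.94 ± 0.29, adjusted p = 4.23e-05), and its lowest Cell Suspension sample, that of mouse 6, lay below every Liver sample. With the pool as a covariate its log2 fold change was 1.17. Of the 13 genes, 1 had samples without overlap, beside 0.256% of all genes that were higher without overlap. Within pools 1, 2, 5 and 6 the mitochondrial share differed by 0.991, 0.400, 0.160 and 0.0507 percentage points. These genes are encoded outside the nucleus, and how their RNA came into the libraries of nuclei was not tested. Genes of cytosolic ribosomal proteins, chosen in the same way, had 46 of 80 higher and none lower. The 46 became 4 with the pool as a covariate, 3 in libraries thinned to 106187 UMIs and 13 without mouse 1. In the same order, 158 of 15995, 149 of 10722 and 160 of 15526 genes were called higher, so calls fell over all genes as well. In hepatocyte nuclei 3 of the 80 were higher and 17 lower, where 9.36% of all genes were higher and 17.5% lower. Of the 80, 59 changed more in endothelial nuclei by the interaction test. The Cell Suspension nuclei also had a lower unspliced share and UMI number, whose part in the mitochondrial and ribosomal counts was not tested.

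Other risen genes with more RNA in endothelial than in hepatocyte nuclei included the T-box gene Tbx20 (log2 fold change 1.93 ± 0.30, adjusted p = 5.69e-05) and Gm20594 (2.02 ± 0.32, adjusted p = 7.08e-05), the latter at 1.37 with the pool as a covariate. Among stellate cell markers, 2 of 10 rose, where 1.86% of all genes were called higher. The 2 became 1 with the pool as a covariate, in the shared pools and without mouse 1, and 0 in the thinned libraries. Rgs5, a pericyte gene, was at 0, 0.936 and 5.09 CPM in Liver and 0, 13.3 and 30.3 CPM in Cell Suspension (log2 fold change 3.39 ± 0.53, adjusted p = 6.42e-05), whereas the whole stellate list summed to 46.3 to 105 CPM and 43.7 to 201 CPM. Of 26 hepatocyte markers 3 rose, such as the fibrinogen gene Fgb (1.20 ± 0.24, adjusted p = 0.00225, product 120.0%). The 3 became 5 with the mouse as a block or the pool as a covariate and 6 in the shared pools. Without the Cell Suspension samples of mice 4, 6 and 8 there were 0. No Kupffer, leukocyte, biliary or mesothelial marker was called.

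Among called genes of at least 50 CPM, 147 rose and 68 fell, and the 12 leading falls of endothelial genes spanned log2 fold changes from -1.16 (Egfem1) to -0.82 (Gm46565). Mylip (chr13:45389742-45412022), a ubiquitin ligase, was at 277, 445 and 528 CPM in Liver and 113, 187 and 355 CPM in Cell Suspension (log2 fold change -0.94 ± 0.19, adjusted p = 0.00161). In hepatocyte nuclei Mylip was higher in Cell Suspension (log2 fold change 0.99), and the difference between the cell types was -2.08 (adjusted p = 3.62e-11). Cr1l, a complement regulator, was at 100.3, 119 and 160.3 CPM and 33.7, 54.7 and 81.9 CPM without overlap (log2 fold change -0.98 ± 0.17, adjusted p = 4.78e-04). C1qtnf1 fell by 0.95, Ifitm10 by 0.93, Tmem140 by 1.09, Mill2 by 0.94, Cbx1 (a heterochromatin protein gene) by 0.85, and the uncharacterized or noncoding genes 2610037D02Rik, Gm15674 and C130026I21Rik by 0.97, 0.89 and 0.87. Egfem1 had overlapping samples (101, 170.0 and 228 CPM in Liver and 24.3, 38.1 and 241 CPM in Cell Suspension), passed the test (adjusted p = 0.0185) and did not with the pool as a covariate (adjusted p = 0.189). Of genes higher in hepatocyte nuclei, the leading falls were Cyp2d22, 1110059E24Rik, 5031425E22Rik, Ap3m1 and Rsrp1, from -0.91 to -0.80. Direction turned for C1qtnf1 and 1110059E24Rik in spliced and ambiguous UMIs (0.26 and 0.070) and for Rsrp1 in unspliced UMIs (0.93), none past the threshold. Mylip, Cbx1, Tmem140, Ifitm10, Mill2, Egfem1 and Ap3m1 did not pass in spliced and ambiguous UMIs (adjusted p = 0.426, 0.331, 0.0690, 0.813, 0.114, 0.863 and 0.365). With the pool as a covariate 2610037D02Rik, Mill2, Cyp2d22, 1110059E24Rik and Ap3m1 did not pass (adjusted p = 0.0999, 0.109, 0.232, 0.234 and 0.460). Tmem140 and Ifitm10 did not pass without mouse 3, Mill2 without mouse 2, Ap3m1 without mouse 1, 2, 3, 5 or 8, and Egfem1 without mouse 1, 2, 3, 4, 6 or 8, while without mouse 7 Egfem1 had a log2 fold change of -1.92.

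**Figure D5:**
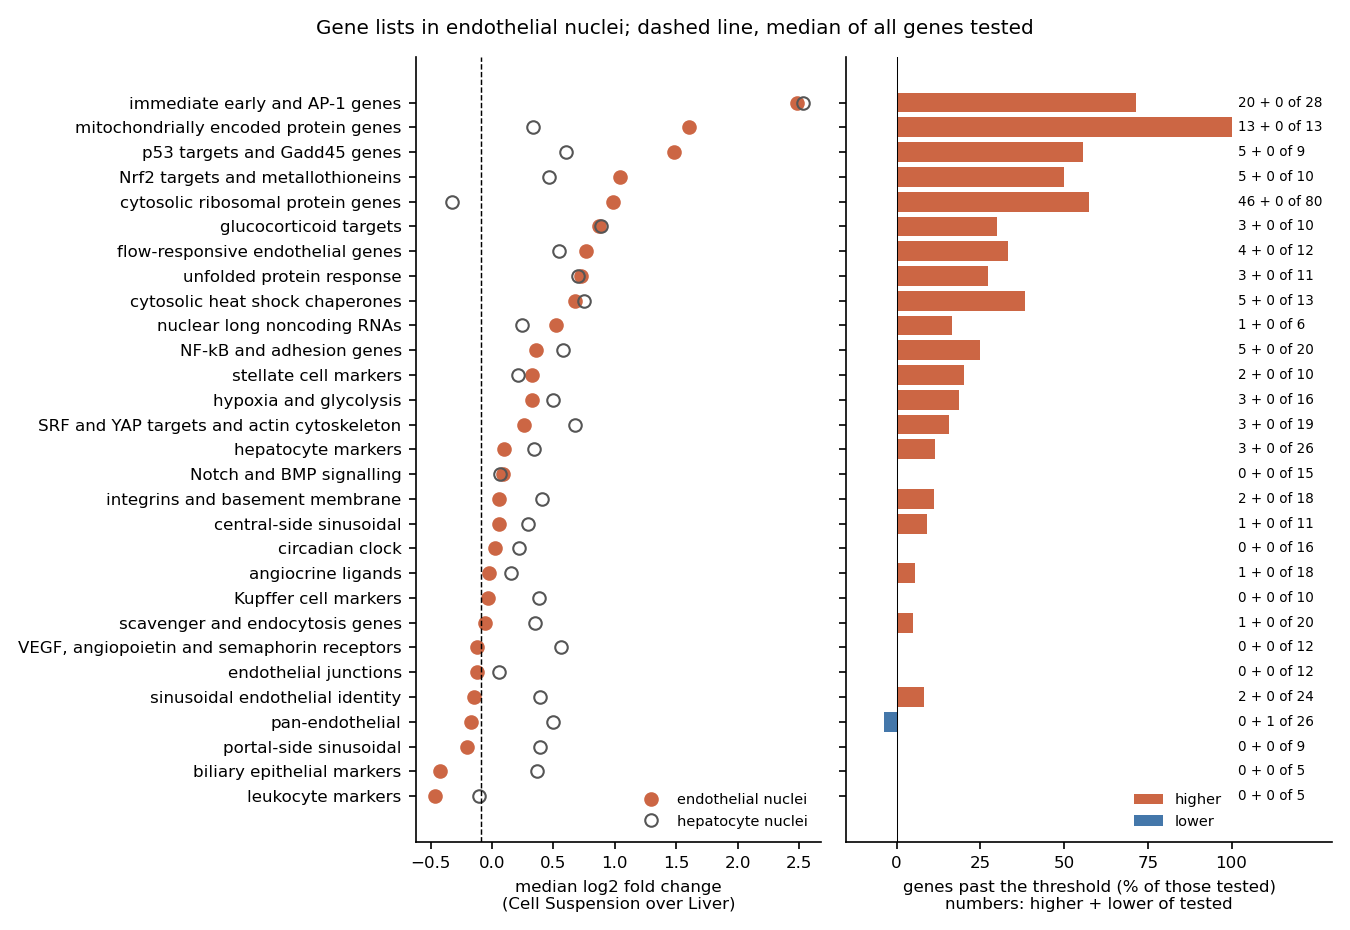
Left, median log2 fold change (Cell Suspension over Liver) of each gene list in endothelial nuclei (filled) and hepatocyte nuclei (open), with the median of all genes tested in endothelial nuclei as a dashed line. Right, the percentage of each list's tested genes that were called higher (right of 0) or lower (left of 0) in endothelial nuclei; immediate-early and mitochondrially encoded genes lead, and endothelial identity lists lie near 0.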

How the data were processed

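Nuclei from 16 of the 24 samples were analysed. Per the labels and the study's methods, the authors converted reads with bcl2fastq 2.19.0, quantified them with Salmon Alevin and Alevin-fry against GRCm38 and called hashtags per pool. The deposited counts are whole UMIs per gene (32285 genes, 32158 with a symbol), barcode and splicing state, not normalized. The authors removed barcodes without a hashtag, hashtag doublets and doublets inferred within samples by scDblFinder, and no further doublet caller was run. Their table of singlet barcodes gave sample, cluster and cell type, and its deposited hashtag margin, a fraction, was used in 1 alternative. The hashtag CD2 was read as Cell Suspension of mouse 2. Counts of the 3 splicing states were summed per sample and tested with edgeR 4.0.16 (R 4.3.3): at least 10 counts per gene, TMM normalization, quasi-likelihood test, Benjamini-Hochberg adjustment. CPM of single genes in endothelial samples use library sizes scaled by TMM, whereas list sums and levels in hepatocyte nuclei are unscaled. Measures per sample were tested with two-sided exact permutation tests, adjusted over 5 measures. On simulated data with 200 changed genes, 95.5% were called at 2-fold, with 19 unchanged genes, and 100% at 4-fold, with 21 unchanged genes. The changed genes were drawn from the 3708 of at least 50 CPM, and no pool or mouse effects were simulated. The recovery of less abundant genes was not tested.

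Members, gene lists and tests were chosen with earlier results of these data known. Named genes were list members, genes named for endothelial cells by the study, and the called genes of at least 50 CPM with the largest changes (12 up and 12 down among those higher in endothelial nuclei, 5 and 5 among those higher in hepatocyte nuclei). Samples of the same number come from the same mouse, and their deviations from the group means correlated at 0.0141 to 0.320 over 3708 genes. The comparison with hepatocyte nuclei used nuclei annotated Hepatocytes or Isolated Hepatocytes, since Cell Suspension held 532 of the first and 12057 of the second. Alternatives were DESeq2 1.42.0, other scaling and filters, pool and mouse terms, left-out mice, thinned libraries, single splicing states and removal of hepatocyte RNA. No endothelial barcode occurred in more than 1 pool, against 337 of all nuclei.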

Additional observations from a re-analysis of the deposited data

Results flagged for a closer look

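Among 194 groups of 8 samples (92 genes and 5 measures per sample), 25 had a highest or lowest sample apart from the others by Dixon's criterion at the 95% level, which chance gives in about 1 in 20 groups. In Liver these were Ier2 (mouse 4, 21.8 CPM), Rgs5 (mouse 6, 5.09 CPM), Gm20594 (mouse 4, 269.5 CPM), Mt2 (mouse 5, 19.7 CPM), Bmp2 (mouse 5, 430.4 CPM), Gadd45a (mouse 5, 12.1 CPM), Ifitm10 (mouse 3, 220.3 CPM), Vegfa (mouse 4, 75.3 CPM), Myc (mouse 5, 11.4 CPM) and Itgb3 (mouse 2, 67.4 CPM). In Cell Suspension they were Adamts1 (mouse 1, 337 CPM), Klf4 (mouse 1, 302 CPM), Klf2 (mouse 1, 335 CPM), Nr4a1 (mouse 4, 118 CPM), Gm20594 (mouse 8, 991 CPM), Dusp5 (mouse 1, 97.1 CPM), Ier3 (mouse 1, 28.2 CPM), Mt2 (mouse 1, 131 CPM), Rsrp1 (mouse 3, 117 CPM), Gadd45a (mouse 4, 92.8 CPM), Ifitm10 (mouse 5, 137 CPM), Egfem1 (mouse 7, 241 CPM), Ier5 (mouse 1, 28.2 CPM), Cxcl9 (mouse 1, 109 CPM) and Pkm (mouse 3, 143 CPM).

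The change from Liver to Cell Suspension differed between endothelial and hepatocyte nuclei for 502 of 25004 genes (2.01%, edgeR interaction test, adjusted p under 0.05). It differed for 49 of the 92 genes named here. A part of the 92 was named for having the largest endothelial changes in these same samples. The 49 are therefore no measure of how common such differences are. The log2 fold change in endothelial minus that in hepatocyte nuclei was above 0 for Rgs5 (3.12), Klf4 (3.09), Gm14023 (2.27), Adamts1 (2.13), Il1a (2.01), Nfkbiz (1.65), Klf2 (1.47), Jund (1.36), Dusp1 (0.93), mt-Nd3 (0.82) and 5031425E22Rik (0.81). It was below 0 for Atf3 (-3.55), Btg2 (-2.75), Gadd45a (-2.62), Pkm (-2.15), Actb (-2.10), Mylip (-2.08), Mt1 (-2.05), Itgb3 (-1.99), Ccn1 (-1.79), Nr4a1 (-1.78), C1qtnf1 (-1.75), Ier2 (-1.74), Egfem1 (-1.68), Egr1 (-1.64), Fos (-1.62), Fosb (-1.61), Mill2 (-1.58), Hmox1 (-1.50), Ifitm10 (-1.48), C130026I21Rik (-1.48), Gm46565 (-1.45), Zfp36l1 (-1.36), Rspo3 (-1.31), Lyve1 (-1.27), Cdh5 (-1.22), Hspa8 (-1.16), Stab1 (-1.12), Tek (-1.12), Flt4 (-1.11), Klf10 (-1.11), Fgb (-0.97), Arhgap31 (-0.95), Kdr (-0.89), Erg (-0.89), Ptprb (-0.83), Pecam1 (-0.83), Cyp2d22 (-0.80) and Stab2 (-0.69). For Klf4 and Klf2, hepatocyte nuclei of Cell Suspension held 0.365 and 0.760 CPM. The endothelial genes Pecam1, Kdr, Lyve1, Cdh5 and Stab2 were low in hepatocyte nuclei and had log2 fold changes there of 0.53, 0.49, 1.17, 1.03 and 0.48.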

How the results depend on the processing

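Among 15995 genes, 447 were called. The count was 213 with the pool as a covariate, 172 after thinning each library to 106187 UMIs (86.6% higher), 242 in unspliced UMIs, 290 in the nuclei with the larger hashtag margin and 288 in the pools with both groups, an alternative chosen after seeing the data, and 255 to 453 without 1 mouse. It was 562 with the mouse as a replicate block, 495 by DESeq2 and 440 by relative log expression scaling. In spliced and ambiguous UMIs 50.3% of 336 calls were higher, and over all endothelial clusters 50.9% of 643. The interaction gave 502 genes, 199 with no replicate block and 263 with nuclei annotated Hepatocytes alone. Median UMIs per endothelial nucleus differed by -1124 in the paired test (replicate block), by -1543 within pools and by -1332 to -922 without 1 mouse. The unspliced and mitochondrial shares differed by -6.81 and 0.400 percentage points within pools.

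Signs turned for Rsrp1 in unspliced UMIs (0.93), for Gadd45a (-1.53), Fgb (-1.65) and Zfp36l1 (-1.47) after subtraction, and for C1qtnf1 (0.26), 1110059E24Rik (0.070) and Erg (0.47) in spliced and ambiguous UMIs, none past the threshold. The cause was not tested. Of 92 named genes, 70 kept direction and side of the threshold with the pool as a covariate, 89 with the block and 90 by relative log expression scaling. Of 70 named genes that were called, 18 moved by over 1.5 times in fold with the pool as a covariate, 15 after subtraction, 18 of 68 in spliced and ambiguous UMIs and 17 of 55 in unspliced UMIs. Depth limits the Cell Suspension samples of mice 3 and 4 (38 and 56 nuclei) most.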

Other observations

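Where 1.86% of all genes were called higher, of 18 integrin and basement membrane genes 2 were higher (Adamts1 and Fn1), and of 6 nuclear long noncoding RNAs 1 (Gm42418), with 0 lower in each (edgeR, adjusted p under 0.05). With the mouse as a block these counts were 3 and 2 higher, and 1 and 0 lower. For Fn1 the hepatocyte product was at least 75% of the Cell Suspension level. After subtraction of the product Adamts1 was still called higher and Fn1 was not.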
